A study of Mus musculus with 12 samples.

Results

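Collagen chain genes were followed through the first weeks of life in the mouse auditory nerve. Every gene on the array whose single annotated symbol reads Col, a number, the letter a and a number (such as Col2a1) was taken, and 42 of 18193 genes met that rule. Where a gene had more than 1 probe set, the brightest one, by mean over the 12 arrays, stands for it. The genes were sorted into 7 fibrillar chains, 8 cartilage chains, 8 basement membrane chains and 19 others, the last made up of 6 fibril-associated, 5 type VI, 4 transmembrane and 4 remaining chains.

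RNA came from 12 CBA/CaJ mice of both sexes, untreated and bred in-house, 2 at each of postnatal days P0, P3, P7, P10, P14 and P21. Dissection took off the bony shell of the cochlea and its lateral wall, along with the larger share of the sensory epithelium, which left the modiolus, the core that holds the spiral ganglion and its nerve fibres. The tissue is therefore enriched for auditory nerve and is not pure, and the wall of the modiolus is itself bone. Left and right cochleas were joined, so an array holds RNA of 1 mouse, and the comparison asked at which ages these genes were higher or lower.

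Collagens are extracellular proteins built from chains that wind together into a helix, and each chain has its own gene. Fibrillar collagens assemble into the tension-bearing fibres of connective tissue and bone, and fibril-associated collagens coat such fibres. Type IV collagen forms the sheet-like network of basement membranes, which in nerve surround Schwann cells and blood vessels. In the cochlea, collagens II, IX and XI are known from cartilage and from the tectorial membrane, and the type IV chains encoded by Col4a3, Col4a4 and Col4a5 are those affected in Alport syndrome, a kidney disease with hearing loss.

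Values below are log2 RMA values, on which a difference of 1 is a 2-fold change, and a gene's values are given as mean ± SD of the 2 mice of a stage or mouse by mouse. A call of higher or lower needs an adjusted p from limma under 0.05, over 45037 probe sets, and a fold above 1.5. Folds are differences on the log2 scale turned back, and levels of different genes were not compared. Array medians lay between 6.7 and 6.79, and replicates correlated at 0.991 to 0.9962. No detection calls accompany the values, so a value in the lowest 25% of its array may be background. Col6a5 was there on 12 of 12 arrays, Col17a1 on 11, Col10a1 on 4 and Col4a3 on 1. Because the tissue is bulk, fewer cells of a type and less RNA per cell cannot be told apart. The balance of 3' over 5' control probe sets for Actb, a sign of RNA integrity, was 2.32 and 2.03 in the P21 mice and 0.81 to 1.41 in the other 10, so it moved with age at the last step.

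Most calls of collagen genes between neighbouring ages fell at 3 steps. From P0 to P3, 8 of 42 were called lower and 1 higher (of all genes, 3.78% were called lower, 1.61% higher and 5.39% either way), with a median change of -0.34 against 0.04 over all genes. From P3 to P7 the direction turned, and 14 were called higher and 3 lower (7.81%, 5.36% and, either way, 13.2% of all genes), with medians of 0.32 and -0.05. From P10 to P14 no member was called by limma, and 0% of all genes were. At an unadjusted limma p under 0.05 and a fold above 1.5, 1 member was lower and 0 were higher (0.643% and 1.46% of all genes). From P7 to P10, 1 gene, Col19a1, was higher and 1, Col16a1, lower (0.176%, 0.209% and, either way, 0.385% of all genes). At the same unadjusted p and fold limit, 3 were higher and 10 lower there (2.14% and 2.08% of all genes). From P14 to P21, 11 were called lower and none higher (1.12%, 0.956% and, either way, 2.08% of all genes). At the unadjusted p and the fold limit, 19 were lower and 0 higher there (3.17% and 2.38% of all genes). Without regard to calls, 35 of 42 members were below 0 from P0 to P3 (43.9% of all genes), 8 from P3 to P7 (56.7%), 31 from P7 to P10 (55.7%), 30 from P10 to P14 (50.1%) and 36 from P14 to P21 (38.7%). In all 91 calls of the 7 comparisons, which reuse the same arrays, the mice of the stages compared did not overlap. With 2 mice a stage a call favours such genes, and the share over all genes was not counted. Members without a call, such as Col12a1 from P0 to P3, could also be free of overlap, so this adds no support to the calls.

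**Figure D1:**
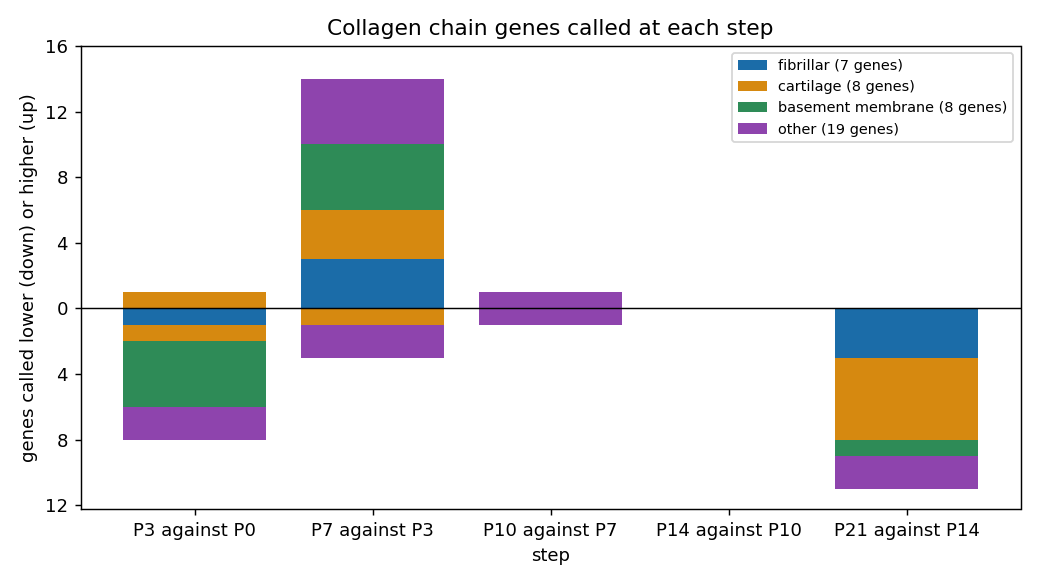
Number of collagen chain genes called higher (above the line) or lower (below it) at each step between neighbouring ages, with bars divided into the 4 classes. The 14 higher calls at P7 come from all classes, and 5 of the 11 lower calls at P21 are cartilage chains.

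Some of these counts changed when single mice were left out. A fit without a mouse has fewer values for the spread, and the share of all genes called in such fits was not counted. Calls were also lost without a mouse of a stage not compared, as that of Col4a1 at P3 against P0 without either P10 mouse. The 8 lower calls at P3 became 1 without P0 mouse 1 or without P3 mouse 1 and 0 without P0 mouse 2. The 14 higher calls at P7 became 9 without P3 mouse 1 and 8 without P7 mouse 1, and the 11 lower calls at P21 against P14 became 4 without P14 mouse 1. With the Actb balance as a covariate, no member was called lower at P21 against P14. The median change of the 42 was then -0.71 against -0.46 without it, and 34 were below 0. The share of all genes called with the covariate was not counted.

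Measured from birth, 9 collagen genes were higher and 15 lower at P10 (11%, 13.5% and, either way, 24.4% of all genes), and 23 were below 0 (54.6% of all genes). At P21, 6 were higher and 22 lower (15.3%, 16.9% and, either way, 32.2% of all genes), and 30 were below 0 (47.1% of all genes). With the Actb covariate 3 of these 28 calls remained, Col18a1, Col9a1 and Col19a1. The median change of the 42 was then -0.76 against -0.77 without it, and 33 were below 0. The balance moved with age at P21, and the share of all genes called in that fit was not counted. The loss of calls therefore cannot be read as particular to collagen genes. An F-test over the 6 ages called 38 of 42 members (45.1% of all genes). Of the 38, 19 were highest at P0 and 9 at P7, and 23 were lowest at P21. The 4 others were Col1a2, Col4a5, Col6a4 and Col6a5.

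**Figure D2:**
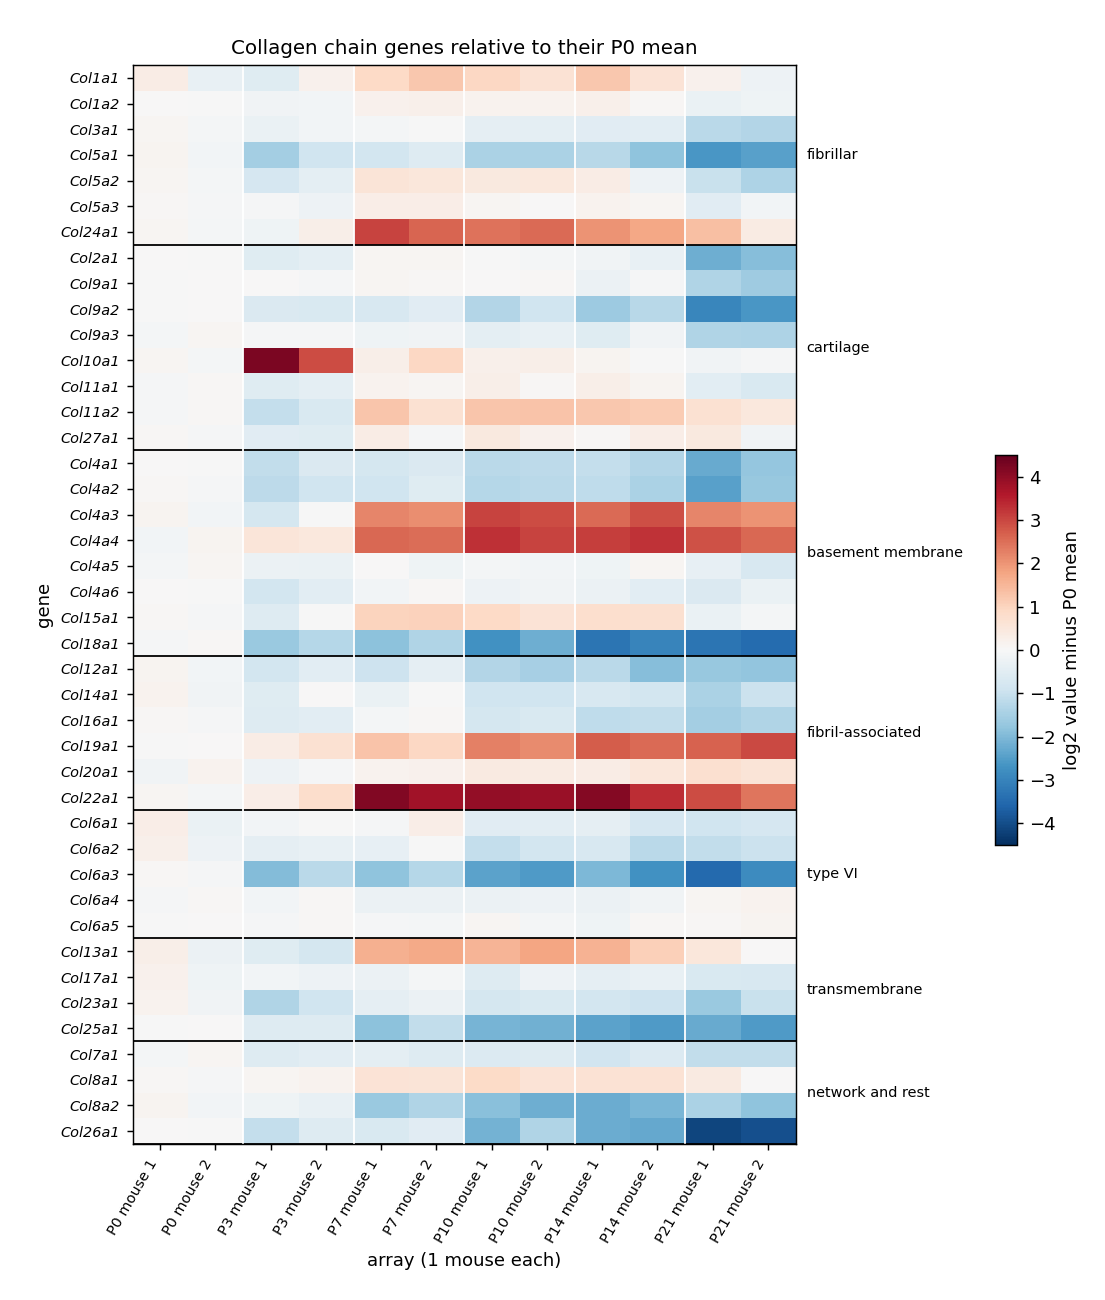
Heat map of the 42 collagen chain genes (rows, by class) in 12 mice (columns, by age), coloured by log2 value minus the gene's P0 mean. Col22a1, Col24a1, Col4a3 and Col4a4 turn red from P7 on, Col10a1 is deep red at P3 and pale after it, and Col26a1, Col18a1 and Col6a3 turn blue.

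Class medians describe the course of each group. Relative to P0, the median fibrillar chain stood at 0.31 at P7 and -0.31 at P21, and the median cartilage chain at 0.11 and -0.98. The median basement membrane chain stood at -0.06 at P7 and -0.51 at P21, and the median of the 19 others at -0.18 and -1.05, while the median of all genes was -0.02 and 0.03. No test was made between classes.

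Among basement membrane chains, the genes for the α1 and α2 chains of type IV collagen fell from birth, while those for α3 and α4 rose. Col4a1 encodes the chain that, with that of Col4a2, forms the common network of most basement membranes. It read 13.18 and 13.11 at P0, 12.05 and 12.51 at P3, 12.34 and 12.51 at P7, 11.94 and 11.96 at P10, 12.06 and 11.82 at P14, and 10.87 and 11.41 at P21. Col4a2 read 11.81 and 11.68 at P0, 10.57 and 10.84 at P3, 10.85 and 11.19 at P7, 10.45 and 10.52 at P10, 10.62 and 10.31 at P14, and 9.3 and 10.04 at P21. For both genes the P0 mice lay above all 10 later mice. At P3, Col4a1 was 1.82-fold and Col4a2 2.06-fold lower than at P0 (adjusted p = 0.0303 and 0.0264). At P21 they were 4.01-fold and 4.21-fold lower than at P0 (log2 changes -2.01 ± 0.19 and -2.08 ± 0.22, SE; adjusted p = 3e-05 and 6.05e-05).

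Col4a3 and Col4a4 encode chains of a second type IV network, completed by the chain of Col4a5. Col4a3 read 5.67 and 5.42 at P0, 4.75 and 5.53 at P3, 7.75 and 7.63 at P7, 8.57 and 8.47 at P10, 8.08 and 8.44 at P14, and 7.73 and 7.55 at P21. Col4a4 read 7.03 and 7.29 at P0, 7.72 and 7.63 at P3, 9.75 and 9.66 at P7, 10.44 and 10.2 at P10, 10.26 and 10.41 at P14, and 10.03 and 9.76 at P21. In both genes the 8 mice from P7 on lay above the 4 younger ones. From P3 to P7 Col4a3 rose 5.86-fold and Col4a4 4.08-fold (log2 changes 2.55 ± 0.22 and 2.03 ± 0.14, SE; adjusted p = 0.000134 and 3.42e-05), and at P10 they were 7.86-fold and 8.94-fold above P0. Another probe set of Col4a3 and both others of Col4a4 were also called higher at P7 and P10. Col4a5 gave no call: its 12 values lay between 10.53 and 11.33, and its difference from the other chains was not tested. A dimmer probe set of Col4a5 was called lower at P21, by -0.68 against P14 and -0.87 against P0 on the log2 scale.

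**Figure D3:**
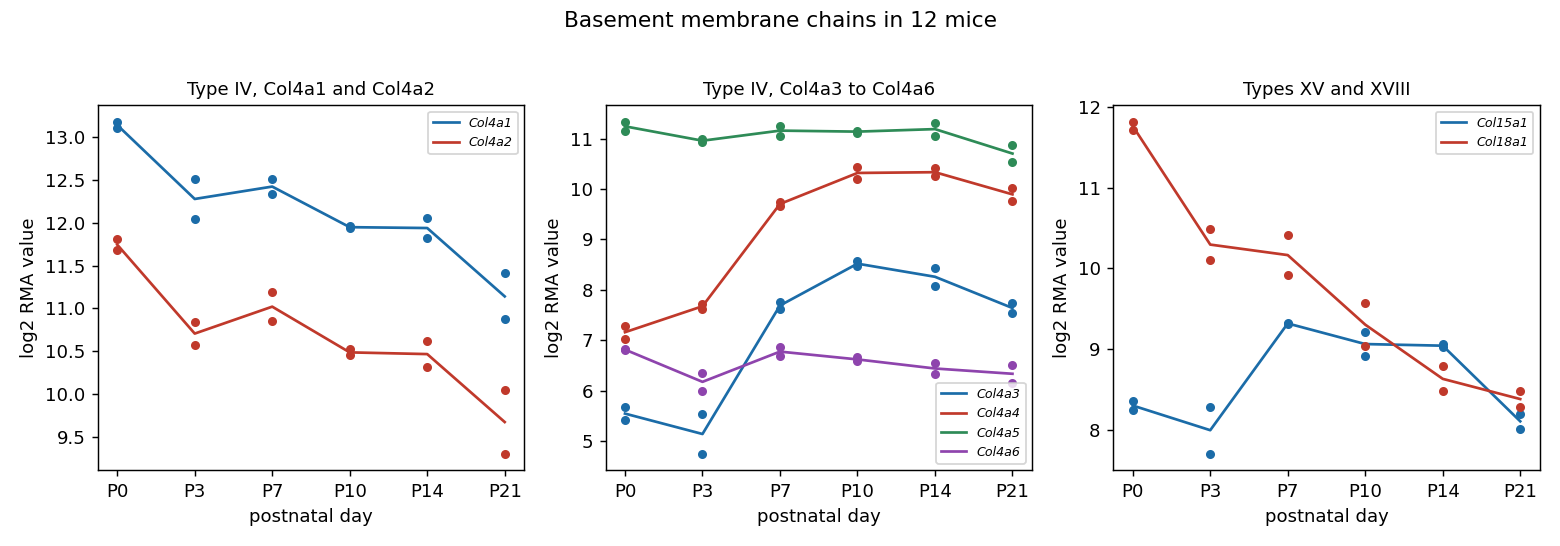
Log2 RMA values of the basement membrane chains by postnatal day, with points for mice and lines through the means of 2 mice. Col4a1, Col4a2 and Col18a1 fall from P0, Col4a3 and Col4a4 rise between P3 and P10, and Col4a5 stays between 10.53 and 11.33.

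The type IV genes lie in neighbouring pairs. Col4a1 and Col4a2 were called in the same comparisons, and so were Col4a3 and Col4a4, whose uncalled changes from P0 to P3 were -0.41 and 0.52, so sequence before a start is shown for 1 gene of each of these pairs. In the third pair, Col4a6 was called at P3 and P7 and Col4a5 was not. In the RefSeq promoter windows (GRCm38.p6, 250 bases before to 50 after a start), 33 of the 42 genes had a window, 36 windows in all. The start sites of Col4a1, on the minus strand of chromosome 8, and Col4a2, on the plus strand, are 21 bases apart, and their windows share 78 bases. These starts, at 11312826 and 11312805, face each other, so the stretch shown before the Col4a2 start lies past that of Col4a1. Capitals mark a CCAAT motif, whose first base is 32 before the Col4a2 start, in the stretch chr8:11312773-11312802 (plus strand). Col4a4 borders Col4a3 on chromosome 1, and the 70 bases before its start, chr1:82586850-82586919 (minus strand), hold none of the motifs searched.
Col4a2: CCAATttgttggcgctgccccctcccctcg
Col4a4: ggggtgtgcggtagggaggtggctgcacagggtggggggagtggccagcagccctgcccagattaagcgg

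A TATA box, a CCAAT box and a GC box were searched on both strands in all windows. The TATA box, read as the letters TATAAA, was in 5 of the 36 collagen windows (13.9%, against 13.6% of 32851 windows), the CCAAT box in 13 (36.1% against 37.4%) and the GC box, read as the letters GGGCGG, in 22 (61.1% against 35.7%). The median GC content of the collagen windows was 59.8%, against 52.7%. A match of letters describes the sequence and was not tied to any level here.

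The remaining basement membrane chains differed among themselves. Col18a1, whose chain carries endostatin at its end, fell further than any other of the class. It read 11.71 and 11.81 at P0, 10.1 and 10.49 at P3, 9.92 and 10.41 at P7, 9.04 and 9.57 at P10, 8.48 and 8.79 at P14, and 8.48 and 8.29 at P21. It was 2.76-fold lower at P3 and 10.4-fold lower at P21 than at P0 (log2 change -3.38 ± 0.22, SE; adjusted p = 3.12e-06), and its other probe set changed by -3.22 over that span. Col15a1, a chain of the same subfamily, stood at 8 ± 0.41 at P3 and 9.32 ± 0.01 at P7, a 2.5-fold rise, and was 1.91-fold lower at P21 than at P14. Col4a6 was called lower at P3 and higher at P7 at folds of 1.56 and 1.52, and a dimmer probe set of the gene was called at neither step.

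Part of the endothelial markers of blood vessels were lower at ages where part of this class was lower. Of 8 endothelial markers, 3 were lower at P3 than at P0 (3.78% of all genes) and 4 at P21 (16.9%), and none was called between P3 and P7. Their summed level was 12.69 to 12.8 at P0, 12.22 to 12.4 at P3 and 11.8 to 12.05 at P21 on the log2 scale. Of 6 pericyte and smooth muscle markers, 2 were lower and 0 higher at P3 than at P0, and 1 was lower and 3 were higher at P21 (16.9% and 15.3% of all genes). Their summed level was 13.51 to 13.53 at P0, 13.03 to 13.12 at P3 and 13.55 to 13.8 at P21. Of 5 Schwann cell markers with a value, 4 were higher at P3 than at P0 (1.61% of all genes), and Mag, a myelin adhesion protein, was 21.6-fold higher at P21. Their summed level was 13.47 to 13.8 at P0 and 15.47 to 15.54 at P7. The part of any of these cell types in the type IV values was not tested.

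Among cartilage chains, Col10a1 rose and fell within a week and Col2a1, the 3 type IX genes and Col11a1 fell at the last step. Col10a1 encodes the collagen of hypertrophic cartilage, the form that precedes bone. It read 5.2 and 5.02 at P0, 9.34 and 8.05 at P3, 5.36 and 6.04 at P7, 5.33 and 5.36 at P10, 5.25 and 5.09 at P14, and 4.94 and 5.05 at P21. Only the P3 mice were above 6.04, and 4 of the other values lay in the lowest 25% of their arrays. At P0, mouse 2 was in that range (limit 5.12) and mouse 1 was just above it (limit 5.06), so the fold against P0 rests on values near background. The gene was 12-fold higher at P3 than at P0 (log2 change 3.59 ± 0.34, SE; adjusted p = 0.000913) and 7.97-fold lower at P7 than at P3 (adjusted p = 0.000549). Col10a1 was the sole collagen gene called higher at P3, and both calls were kept in each fit that left out a mouse. The study's t-test at an unadjusted p under 0.05 did not call the fall. With 2 mice that stand 1.29 apart, the height of the P3 value is not precise. Of 11 chondrocyte markers, 2 were also higher at P3 than at P0 (1.61% of all genes), Snorc, a cartilage proteoglycan, by 4.23-fold and Ucma by 2.34-fold. Snorc read 9.99 and 8.7 at P3 and was 3.28-fold lower at P7. Comp, a cartilage matrix protein not called at P3 against P0, read 9.55 and 7.37 at P3 and was 6.54-fold lower at P7. P3 mouse 1 was thus the higher of the pair in Snorc and Comp as in Col10a1. Ucma went the other way, from 9.68 and 9.02 at P3 to 10.5 and 10.44 at P7. From P3 to P7, 2 of the 11 markers were called higher and 4 lower (7.81% and 5.36% of all genes). The part of cartilage in the Col10a1 values was not tested.

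As Col10a1 was the sole collagen gene called higher at P3, the 250 bases before its RefSeq start, chr10:34389731-34389980 (GRCm38.p6, plus strand), are shown. Capitals mark a TATAAA, whose first base is 32 before the start, and the window held neither a CCAAT box nor a GC box.
Col10a1: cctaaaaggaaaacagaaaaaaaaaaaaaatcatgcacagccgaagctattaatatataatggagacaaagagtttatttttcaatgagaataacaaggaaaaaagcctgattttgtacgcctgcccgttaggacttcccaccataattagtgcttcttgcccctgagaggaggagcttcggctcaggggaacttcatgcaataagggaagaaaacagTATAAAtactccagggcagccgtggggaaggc

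Col2a1 encodes the main fibrillar chain of cartilage. Its values were 13.62 and 13.61 at P0, 13.08 and 13.17 at P3, 13.7 and 13.69 at P7, 13.58 and 13.54 at P10, 13.46 and 13.28 at P14, and 11.42 and 11.7 at P21. It thus stayed above 13 in the 10 mice up to P14 and was below 12 in the P21 mice, 3.51-fold lower than at P14 (log2 change -1.81 ± 0.11, SE; adjusted p = 0.000327). With the Actb covariate the log2 change was -1.39 and not called.

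The type IX chains, which sit on type II fibrils, fell at the same step. Col9a1 went from 13.57 and 13.78 at P14 to 12.47 and 12.22 at P21 (2.51-fold lower, adjusted p = 0.00196). Col9a2 went from 9.63 and 10.01 to 8.33 and 8.64 (2.52-fold, adjusted p = 0.00943). Col9a3 went from 12.2 and 12.6 to 11.41 and 11.36 (2.02-fold, adjusted p = 0.00996). Before P14 the 3 genes differed in course: over the 8 mice up to P10, Col9a1 stayed between 13.76 and 13.93 and Col9a3 between 12.32 and 12.85, while Col9a2 went from 11.25 and 11.28 at P0 to 9.96 and 10.36 at P10, and was 2.15-fold lower there. A less bright probe set of Col9a1 was called lower already at P10 against P0 (log2 change -0.74), and changed by -2.29 from P14 to P21 and by -3.63 from P0 to P21, against -1.33 and -1.49 for the brighter one. Col2a1, Col9a1, Col9a2 and Col9a3 were the 4 members called lower at P21 against P14 in each fit that left out a mouse.

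The type XI chains belong to the same fibrils, and of them Col11a1 was also called lower at the last step and Col11a2 was not. Col11a2 read 9.89 and 9.99 at P0, 8.88 and 9.25 at P3, 11.19 and 10.64 at P7, 11.18 and 11.22 at P10, 11.14 and 11.08 at P14, and 10.61 and 10.41 at P21. It rose 3.61-fold from P3 to P7 (log2 change 1.85 ± 0.18, SE; adjusted p = 0.000224), and every mouse from P7 on exceeded the 4 younger ones. Col11a1 read 12.82 and 12.9 at P0, 12.33 and 12.41 at P3, 13.03 and 12.96 at P7, 13.13 and 12.93 at P10, 13.14 and 12.99 at P14, and 12.38 and 12.18 at P21, so it rose 1.54-fold at P7 and fell 1.72-fold at P21. The other probe set of Col11a1, with a mean of 11.94, was called lower from P14 to P21 (log2 change -1.72) and from P0 to P21 (-1.71). The brighter one changed by -0.79 and by -0.58, the latter not called. Col27a1, a fibrillar chain of cartilage, was called higher at P7 at a fold of 1.59, a call that 11 of 20 alternative settings lost.

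**Figure D4:**
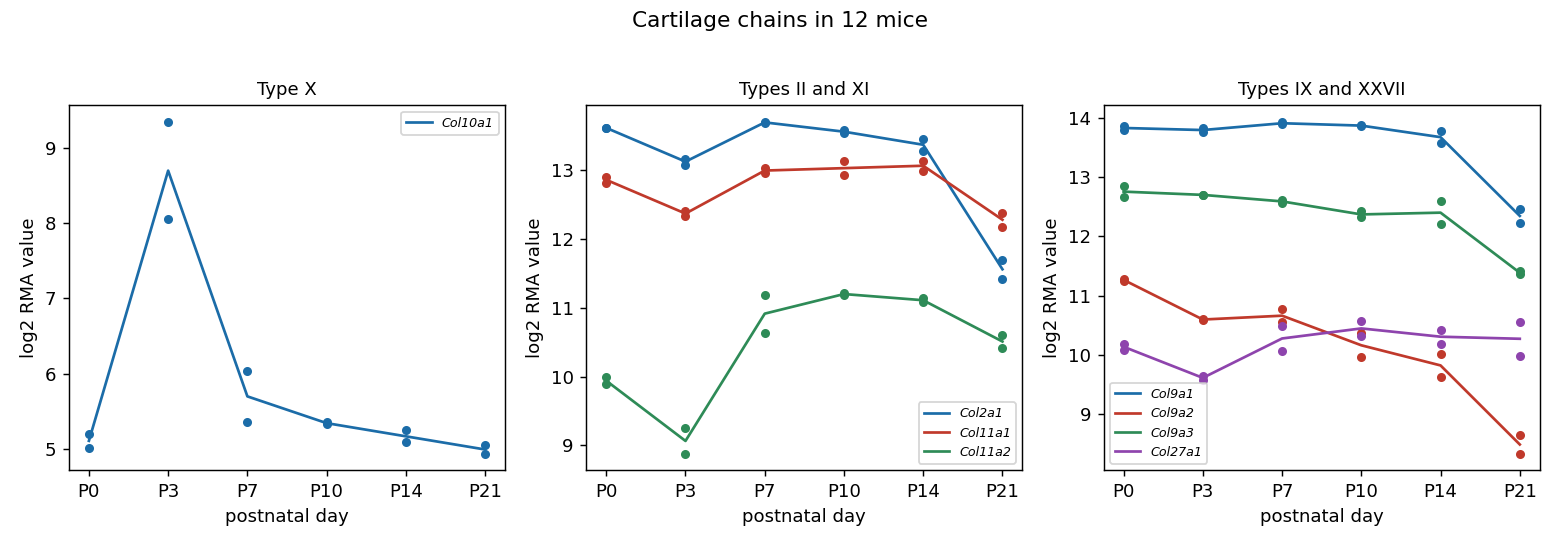
Log2 RMA values of the cartilage chains by postnatal day, with points for mice and lines through the means of 2 mice. Col10a1 peaks at P3 (9.34 and 8.05), and Col2a1, Col9a1, Col9a2 and Col9a3 step down between P14 and P21.

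Cartilage markers other than collagens stand beside the P21 step. Of 11 chondrocyte markers, none was called between P14 and P21, and their summed level was 14.94 to 15.23 at P14 and 14.84 to 15.18 at P21. From P3 to P7, 2 were higher and 4 lower (7.81% and 5.36% of all genes), among them Matn1, a cartilage matrix protein, which was 13.3-fold lower. Of 4 markers of the tectorial membrane and its supporting cells, none was called from P14 to P21. Their summed level was 14.24 to 14.45 at P0, 11.5 to 11.79 at P14 and 11.04 to 11.24 at P21. Over the whole span, 3 of the 4 were lower at P21 than at P0 (16.9% of all genes), Tecta by 131-fold. Tecta had fallen before the last step, to 6.26 and 6.93 at P10, and read 6.33 and 6.17 at P14 and 5.43 and 6.77 at P21. Otoa read 10.08 and 10.3 at P0 and 10.05 and 9.68 at P21.

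Among fibrillar chains, Col24a1, Col1a1 and Col5a2 rose between P3 and P7, and Col3a1, Col5a1 and Col5a2 fell between P14 and P21. Col24a1, a chain known from forming bone, read 7.03 and 6.88 at P0, 6.76 and 7.21 at P3, 10 and 9.58 at P7, 9.39 and 9.52 at P10, 8.99 and 8.69 at P14, and 8.32 and 7.34 at P21. It rose 6.99-fold from P3 to P7 (log2 change 2.81 ± 0.28, SE; adjusted p = 0.000295), and the mice from P7 on were all above those before. The P21 mice lay 0.98 apart; against P0 the gene was 1.83-fold higher there (adjusted p = 0.0311), and with the Actb covariate that log2 change was -0.28.

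Col1a1 and Col1a2 encode the chains of type I collagen, the main collagen of bone and connective tissue. Col1a1 read 11.32 and 10.66 at P0, 10.45 and 11.19 at P3, 11.9 and 12.19 at P7, 11.93 and 11.64 at P10, 12.19 and 11.6 at P14, and 11.2 and 10.76 at P21. It was 2.34-fold higher at P7 than at P3 (log2 change 1.23 ± 0.3, SE; adjusted p = 0.0227), a call lost without P3 mouse 1 or either P7 mouse (log2 changes of 0.86 to 1.37). Col1a2 read between 13.96 and 14.49 on all 12 arrays, whose brightest probe sets lay at 14.47 to 14.66, and was not called in any comparison. Of its other probe sets, one with a mean of 13.64 was called lower at P21 against P14 (log2 change -0.87), and a dimmer one with a mean of 8.68 was called higher at P10 against P0 (log2 change 1.66), so the probe sets of Col1a2 did not give one course.

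Type III and type V chains assemble with type I in soft connective tissue. Col5a1 read 11.28 and 11.05 at P0, 9.64 and 10.27 at P3, 10.34 and 10.6 at P7, 9.75 and 9.74 at P10, 9.92 and 9.35 at P14, and 8.55 and 8.73 at P21, and was 5.76-fold lower at P21 than at P0 (log2 change -2.53 ± 0.23, SE; adjusted p = 1.95e-05). Col5a2 read 12.79 and 12.62 at P0, 11.96 and 12.26 at P3, 13.27 and 13.23 at P7, 13.14 and 13.17 at P10, 13.05 and 12.46 at P14, and 11.7 and 11.31 at P21. It rose 2.2-fold at P7 and was 2.38-fold lower at P21 than at P14. Its other probe set, with a mean of 12.19, changed by 0.62 from P3 to P7, not called, and by -1.29 from P14 to P21, called. By the brightest probe sets, Col5a2 alone of these partner chains was called at P7. Both were called lower at P21 against P14, and the difference between them was not tested. The Col5a1 call at that step was kept in 6 of 20 alternative settings. Col3a1 read 14.15 and 14 at P0, 13.78 and 13.94 at P3, 13.98 and 14.04 at P7, 13.68 and 13.65 at P10, 13.58 and 13.59 at P14, and 12.85 and 12.76 at P21, 2.41-fold below P0 (log2 change -1.27). Its P0 values were near the array maximum, and its other probe set, with a mean of 11.52, changed by -2.46 over that span and was called lower already at P10 (-1.2). Col5a3 was not called in any of the 7 comparisons.

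**Figure D5:**
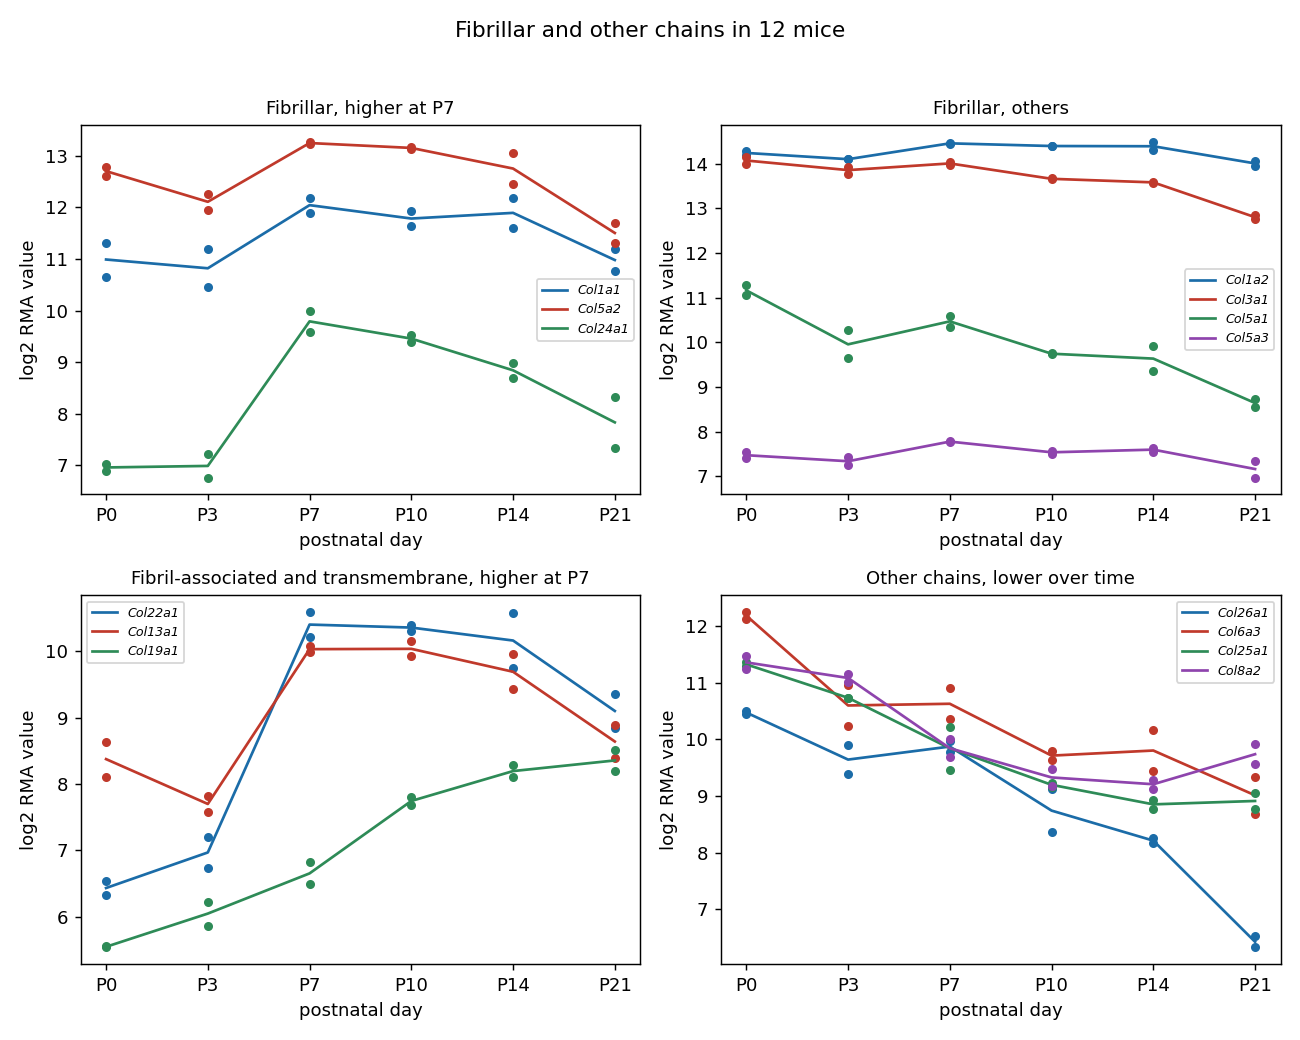
Log2 RMA values of fibrillar and other chains by postnatal day, with points for mice and lines through the means of 2 mice. Col24a1, Col22a1 and Col13a1 step up between P3 and P7, Col19a1 climbs at each age, and Col26a1 falls from 10.5 and 10.45 at P0 to 6.33 and 6.53 at P21.

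Markers of bone cells, and part of those of other cell types, rose at the P7 step. All 7 of 7 osteoblast and osteocyte markers with a value were higher at P7 than at P3 (7.81% of all genes were called higher), by 4.32-fold for Alpl, the phosphatase of mineralising cells, to 18.1-fold for Mepe, a matrix protein of osteocytes. Their summed level was 9.71 to 10.04 at P0, 11.93 to 11.99 at P3, 15.14 to 15.31 at P7, 15.09 to 15.18 at P14 and 14.59 to 14.84 at P21. At the same step, 4 of 5 Schwann cell markers were higher and 0 lower, and 4 of 7 neuron markers were higher and 1 lower. Of 10 fibroblast markers 3 were higher and 1 lower, and of 6 pericyte and smooth muscle markers 2 were higher and 0 lower. The part of bone or of these other cells in the collagen values at P7 was not tested.

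Among the 19 other chains, the largest rise was that of Col22a1 and the largest fall that of Col26a1. Col22a1 is a fibril-associated collagen known from tissue junctions. It read 6.54 and 6.33 at P0, 6.73 and 7.21 at P3, 10.59 and 10.21 at P7, 10.4 and 10.31 at P10, 10.58 and 9.74 at P14, and 9.36 and 8.84 at P21. The 4 mice up to P3 lay below 7.3 and the 8 later ones above 8.8, and the gene rose 10.8-fold from P3 to P7 (log2 change 3.43 ± 0.28, SE; adjusted p = 8.99e-05). Its other probe sets gave log2 changes of 3.1 and 0.94 at that step, both called.

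Col13a1, a transmembrane collagen of cell adhesions, rose at the same step. It read 8.64 and 8.11 at P0, 7.82 and 7.58 at P3, 9.98 and 10.08 at P7, 9.92 and 10.15 at P10, 9.95 and 9.43 at P14, and 8.89 and 8.39 at P21. The rise at P7 was 5.03-fold (log2 change 2.33 ± 0.23, SE; adjusted p = 0.00026), and the P21 values overlapped those of P0. Col19a1, a fibril-associated chain, behaved otherwise: it read 5.54 and 5.56 at P0, 5.87 and 6.23 at P3, 6.82 and 6.49 at P7, 7.8 and 7.69 at P10, 8.28 and 8.11 at P14, and 8.2 and 8.51 at P21. Its mean was higher at each age than at the one before, and it ended 6.99-fold above P0 (log2 change 2.81 ± 0.16, SE; adjusted p = 1.66e-06). A dim probe set of Col19a1, with a mean of 4.65, had a log2 change of -0.03 over this span and was not called, and another, with a mean of 6.43, changed by 3.87. Col20a1, also fibril-associated, was 1.57-fold higher at P21 than at P0 (log2 change 0.66), but the change was -0.04 with the Actb covariate, the call was lost without P0 mouse 1, and 1 of its 3 other probe sets was called.

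Col26a1, known from developing reproductive tissue, read 10.5 and 10.45 at P0, 9.39 and 9.9 at P3, 9.78 and 9.97 at P7, 8.36 and 9.13 at P10, 8.26 and 8.17 at P14, and 6.33 and 6.53 at P21. It was 16.5-fold lower at P21 than at P0 (log2 change -4.05 ± 0.23, SE; adjusted p = 1.67e-06), the widest range of stage means among the 42 genes. A dim probe set of the gene, with a mean of 5.13, changed by -0.26 over the same span and was not called.

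Type VI chains form beaded filaments around cells, with Col6a1, Col6a2 and Col6a3 as the usual partners. Col6a3 read 12.25 and 12.12 at P0, 10.24 and 10.96 at P3, 10.36 and 10.9 at P7, 9.79 and 9.64 at P10, 10.16 and 9.45 at P14, and 8.69 and 9.34 at P21, which is 9-fold below P0 at P21 (log2 change -3.17 ± 0.31, SE; adjusted p = 3.37e-05). Col6a1 read 10.5 and 9.93 at P0 and 9.32 and 9.45 at P21 (1.78-fold lower), and Col6a2 read 11.7 and 11.27 at P0 and 10.36 and 10.52 at P21 (2.06-fold lower). The step from P0 to P3 was called for Col6a3 alone of the 3 partners (3-fold, adjusted p = 0.0186); the difference between the chains was not tested. Col6a4 and Col6a5 stayed at or below 5.63 in every mouse and were not called.

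The other chains that fell included Col25a1, a transmembrane chain of motor innervation, from 11.33 ± 0.05 at P0 to 8.92 ± 0.19 at P21 (5.31-fold lower), although its dimmer probe set changed by -0.11 and was not called. Col8a2, a network-forming chain of blood vessels and cornea, went from 11.09 ± 0.09 at P3 to 9.85 ± 0.22 at P7 (2.36-fold lower), against the direction of the 14 collagen genes called higher there. Its partner Col8a1 was 1.65-fold higher at P10 than at P0. Col12a1, Col14a1 and Col16a1, fibril-associated chains, ended 3.34-fold, 2.28-fold and 2.72-fold below P0. Neither other probe set of Col14a1 was called over that span (log2 changes -0.62 and -0.6). The brightest other probe set of Col12a1 was called (-1.62), and its dim ones were not (-0.04 and -0.07). Col7a1, the anchoring fibril chain of skin, ended 2.14-fold below P0. Col23a1, a transmembrane chain, ended 2.52-fold below P0, after a lower call at P3 and a higher call at P7. The other Col23a1 probe sets changed by -1.3, called, and by -0.29, not called, from P0 to P21 on the log2 scale. Col17a1, of hemidesmosomes, was called lower at P21, but its P21 values of 4.43 and 4.38 lay in the lowest 25% of their arrays, so no fold is given.

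Most genes listed for the modification and folding of collagen chains inside the cell fell over the same weeks. Of 18 with a value, 15 were lower at P21 than at P0 (16.9% of all genes were called lower) and 2 were higher, with a median change of -1.13 against 0.03 over all genes. P4ha2, a prolyl hydroxylase subunit, fell 4.24-fold, P3h3 and P3h1, prolyl 3-hydroxylase family members, fell 3.27-fold and 3.2-fold, and Serpinh1, the collagen chaperone HSP47, fell 2.69-fold. Serpinh1 read 13.06 and 13.1 at P0 and 11.5 and 11.8 at P21. P3h2 and Tmem38b were 1.69-fold and 1.53-fold higher. The Actb balance differs between these ages as it does for the collagen genes.

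Genes that act on collagen outside the cell were mixed. Of 6 genes of propeptide removal, 3 were lower at P21 than at P0 (16.9% of all genes), with Bmp1, the procollagen C-proteinase, 2.25-fold lower. Of 4 cross-linking enzymes, 2 were lower against the same share of all genes, with Loxl1 3.38-fold lower. Of 8 collagen receptors, 4 were higher at P7 than at P3 (7.81% of all genes). Itga10, the integrin subunit that binds cartilage collagen, went from 8.11 and 7.74 to 10.1 and 9.98 and was 4.33-fold higher.

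Of 7 genes of collagen breakdown, 4 were higher at P7 than at P3 (7.81% of all genes) and 4 lower at P21 than at P14 (1.12%). Ctsk, the collagen-degrading protease of osteoclasts, rose 3.57-fold at P7 and was 3.81-fold lower at P21 than at P14. Mmp13, a collagenase, read 5.18 and 3.99 at P0, 8.15 and 10.21 at P3, 10.63 and 12.02 at P7, 8.82 and 9.33 at P10, 10.5 and 8.64 at P14, and 5.56 and 5.84 at P21. It was thus higher at every age between than at either end.

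Of 7 transcription factors of collagen-producing cells, 4 were lower and 1 higher at P21 than at P0 (16.9% and 15.3% of all genes). Mkx, a tendon factor, and Sox5, a cartilage factor, were 4.23-fold and 3.94-fold lower. Sp7, the osteoblast factor that is also in the bone marker list, was 3.62-fold higher and stood highest at P7, at 10.56 and 10.38.

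Of the remaining cell types whose markers were counted between P0 and P21, 2 of 10 fibroblast markers were higher and 4 lower, 3 of 6 pericyte and smooth muscle markers were higher and 1 lower, and 4 of 7 neuron markers were higher and 1 lower. Of 6 skeletal muscle markers 2 were lower, and of 3 erythroid markers 2 were higher. Of all genes, 15.3% were called higher and 16.9% lower over this span, so shares such as 2 of 10 are near the background. The summed fibroblast level was 15.05 to 15.07 at P0, 15.22 to 15.23 at P7, 14.99 to 15.12 at P14 and 14.65 to 14.69 at P21. The median change of the 10 fibroblast markers from P0 to P21 was 0.08. From P14 to P21, 1 of them was called higher and 0 lower (0.956% and 1.12% of all genes). The part of fibroblasts in the collagen values was not tested. Hba-a1, a globin, and Myh3, an embryonic myosin, were in the lowest 25% of all 12 arrays.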

How the data were processed

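Labelled RNA, made from 100 ng of total RNA per mouse, was hybridised to Affymetrix whole-genome mouse arrays, which the authors processed in Expression Console by RMA and MAS5 (versions not given in the sources used here). RMA corrects background, equalises the distributions of the arrays by quantiles and gives 1 value per probe set, and the table used here holds the deposited RMA result on the log2 scale. Arrays give no read depth, and 2 mice a stage limit the precision. The table held 0 columns of other samples. The table has 45101 probe sets. Without its 64 controls 45037 were left, of which 34945 carry 1 symbol. The 42 genes had 82 probe sets, and 27 genes had more than 1.

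A linear model with 6 stage groups was fitted to the 12 arrays (limma 3.58.1 under R 4.3.3, lmFit then eBayes), which leaves 6 residual degrees of freedom. The Benjamini-Hochberg adjustment ran over 45037 probe sets. The fit was tested on simulated data. Every collagen gene may be named; mouse values are given in each class for the 4 genes called by the F-test with the largest range of stage means, for the 3 with the largest range of all, for chains that share a trimer and for genes that move against most of their class, and of each list up to 4 called genes are named. P-values of the main fit rest on a spread per probe set that is pooled over the mouse pairs of all 6 stages and moderated by eBayes. They do not measure the spread of the 2 stages compared alone. Summed levels of a list are log2 of its summed linear values. Members, classes and lists were chosen with earlier results of these data known. Alternatives were a replicate block, an intensity trend, array weights, shifted medians, a filter on dim probe sets, the mean of a gene's probe sets, the 4 arrays of 2 stages alone, a fold limit of 2, the methods' t-test, the Actb covariate and leaving out each mouse.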

Additional observations from a re-analysis of the deposited data

How the results depend on the processing

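For 18 of the gene changes in the text, picked from those called in the main fit, 412 values were computed under alternative settings. Of these, 375 kept their direction and their side of the threshold, 37 kept the direction and lost the call, and none reversed. The fold limit of 2, the t-tests, the intensity trend and the 4-array fits return the same difference of stage means. Leaving out a mouse of another stage does so too, so in these settings no change could reverse. Shares of all genes called were counted in the main fit alone. Over all 91 calls, 2 turned direction under an alternative, Col24a1 (-0.28) and Col20a1 (-0.04) at P21 against P0 with the Actb covariate. After Benjamini-Hochberg adjustment the methods' t-test called 0 members in each comparison. The unadjusted t-test gave 9 higher and 1 lower at P7 against P3, and 3 higher and 3 lower at P10 against P7. With the Actb covariate, counts were 4 lower at P3 against P0, 9 higher at P7 against P3, 0 higher and 0 lower at P10 against P7, 0 lower at P21 against P14, and 1 higher and 2 lower at P21 against P0. On the 4 arrays of the stages compared, they were 1 lower at P3 against P0, 9 higher at P7 against P3, 0 higher and 0 lower at P10 against P7 and 0 lower at P21 against P14. A fold limit of 2 gave 5 lower at P3, 9 higher at P7, 0 lower at P10 against P7 and 7 lower at P21 against P14. The mean of a gene's probe sets gave 2 higher and 2 lower at P10 against P7, and array weights 2 lower there. Leaving out dim probe sets gave 0 higher at P3, since Col10a1 is then not tested, and members dimmer than the median have no value there. Apart from these constructions, the cause was not tested. Leaving out each mouse in turn gave 1 to 1 higher and 0 to 9 lower at P3 against P0, 8 to 14 higher and 2 to 3 lower at P7 against P3, 0 to 1 higher and 0 to 2 lower at P10 against P7, 0 to 0 higher and 4 to 12 lower at P21 against P14, 8 to 10 higher and 11 to 16 lower at P10 against P0, 4 to 7 higher and 22 to 24 lower at P21 against P0, and 34 to 37 by the F-test. The F-test has no value for the 4-array fits and the t-tests. Mice with the same replicate number were not paired: over 15 stage pairs their deviations correlated at -0.12 to 0.32, and 6 pairs exceeded 0.1. With the replicate block, 10 of 11 lower calls at P21 against P14 were kept, Col5a1 being lost, and no other call of the 7 comparisons was lost. With 2 mice a stage and no detection calls, small changes and values near background are not resolved.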
